A study of Mus musculus with 96 samples.

Results

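The Hox genes of the mouse, grouped by cluster and paralogue number, are described here in single embryonic stem cells (ES cells) and single mouse embryonic fibroblasts (MEFs). Members were chosen by name, as gene rows called Hox followed by a cluster letter and a number, and 39 of the 21711 gene rows qualified. Of these 39 rows, 31 had a read in a MEF and 8 had no read on the plate. The measurements came from 1 plate of 96 wells of single cells, read by STRT (single-cell tagged reverse transcription), which tags transcripts at their 5′ end and keeps the strand. It held 48 ES cell wells of the R1 line, 44 MEF wells and 4 negative control wells, per the labels. MEFs had been grown in DMEM with fetal bovine serum, per the labels, and ES cells in a separate medium. R1 also stands as the source line of the MEF wells, at odds with a fibroblast, and the labels give no genotype, embryo age or dissected body region for them. No genetic change or treatment is named for either type.

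Wells with at least 10000 gene reads were used, which kept 45 ES cells and all 44 MEFs. Gene reads per well ran from 13576 to 703423 in ES cells (median 161206) and from 63938 to 1883709 in MEFs (median 851801), so MEFs were read more deeply. The 4 negative controls held 236 to 4662 gene reads. All 5 ES cell markers and all 7 fibroblast markers followed the labels, with a summed counts-per-million value (CPM) of 7320 for ES cell markers in ES cells against 27.1 CPM in MEFs, and 9475 CPM of fibroblast markers in MEFs against 663 CPM in ES cells. Because each type had its own side of the plate, plate side and cell type cannot be told apart. The labels name no separate cultures, so each type is 1 sample. No p-value is given, and intervals (95%, exact Poisson for levels and Clopper-Pearson for shares of cells) cover counting error of reads or cells only. PCR copies of 1 molecule were counted as separate reads, so the intervals of levels are too narrow for the counting error of molecules.

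Hox genes encode homeodomain transcription factors that lie in 4 clusters, and their order along the chromosome follows the order in which they act along the body axis. Genes with low paralogue numbers act toward the head, those with high numbers toward the tail and the ends of the limbs, and genes with the same number in different clusters descend from 1 ancestral gene. Fibroblasts in culture are known to keep Hox patterns of the body site they came from, whereas in undifferentiated ES cells the clusters are known to be held by Polycomb complexes. Below, paralogues 1 to 3 are called anterior, 4 to 8 central and 9 to 13 posterior.

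Because STRT reads start at the transcript's 5′ end, the 250 bases upstream of the annotated start are shown for 5 members that carry the findings below. They are Hoxa5 with the most reads, Hoxb8 and Hoxc4 from the other broadly read clusters, Hoxd10 with the most reads of the Hoxd cluster, and Hoxd13 with none. The sequences are from RefSeq on GRCm38.p6, 5′ to 3′ on the gene's strand, with each CG pair in capitals. The starts are those of RefSeq. For Hoxc4 the window lies inside the GENCODE span of the gene (chr15:103018934-103036852), not upstream of it.
Hoxa5, chr6:52204588-52204837, minus strand: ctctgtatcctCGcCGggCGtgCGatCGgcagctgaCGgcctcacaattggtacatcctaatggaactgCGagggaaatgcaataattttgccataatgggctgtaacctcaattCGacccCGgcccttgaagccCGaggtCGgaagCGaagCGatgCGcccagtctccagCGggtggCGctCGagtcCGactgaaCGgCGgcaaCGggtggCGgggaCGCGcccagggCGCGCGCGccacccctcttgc
Hoxb8, chr11:96281655-96281904, plus strand: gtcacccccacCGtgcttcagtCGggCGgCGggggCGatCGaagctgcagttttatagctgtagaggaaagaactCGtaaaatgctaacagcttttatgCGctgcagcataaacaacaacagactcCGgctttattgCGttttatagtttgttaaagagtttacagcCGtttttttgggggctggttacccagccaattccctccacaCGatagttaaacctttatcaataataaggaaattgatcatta
Hoxc4, chr15:103034145-103034394, plus strand: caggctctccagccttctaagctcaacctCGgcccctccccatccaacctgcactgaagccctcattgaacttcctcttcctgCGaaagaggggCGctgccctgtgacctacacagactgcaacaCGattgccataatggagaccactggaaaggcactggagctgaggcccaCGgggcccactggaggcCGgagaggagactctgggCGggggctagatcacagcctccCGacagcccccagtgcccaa
Hoxd10, chr2:74691641-74691890, plus strand: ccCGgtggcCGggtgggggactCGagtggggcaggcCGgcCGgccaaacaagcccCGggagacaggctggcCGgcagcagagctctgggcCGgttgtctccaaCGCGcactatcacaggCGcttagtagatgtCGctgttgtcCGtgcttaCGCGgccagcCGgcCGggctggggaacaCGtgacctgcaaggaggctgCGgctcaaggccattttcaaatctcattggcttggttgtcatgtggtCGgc
Hoxd13, chr2:74667975-74668224, plus strand: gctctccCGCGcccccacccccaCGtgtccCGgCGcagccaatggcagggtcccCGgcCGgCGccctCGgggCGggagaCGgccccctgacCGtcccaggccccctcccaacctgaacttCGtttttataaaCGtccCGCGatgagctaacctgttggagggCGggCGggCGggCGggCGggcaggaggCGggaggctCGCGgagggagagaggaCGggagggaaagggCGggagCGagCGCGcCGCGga
These windows held 28 CG pairs for Hoxa5, 12 for Hoxb8, 8 for Hoxc4, 20 for Hoxd10 and 31 for Hoxd13, so the gene with no read had more CG pairs than the gene with the most. The promoter table matched 22 of the 39 members with 24 starts, whose median was 12.5 CG pairs (2 to 35), against a median of 6 (quartiles 2 and 16) over all 32851 starts. TATAAA was found on either strand in 4 of the 24 windows (16.7%), among them Hoxb8 and Hoxd13, and in 12.4% of all windows. TGATNNAT, a pattern of the kind bound by Hox and Pbx proteins together, was also found in 4 (16.7%), Hoxb8 among them, and in 7.68% of all windows. A match of letters is a description of the window only.

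Summed over the family, MEFs carried 22221 Hox reads, or 632 CPM (624 to 640.4), and ES cells 326 reads, or 37.4 CPM. Over the 8 plate rows the MEF sum ran from 262 to 1303 CPM. In single MEFs the summed Hox level was 0 at its lowest, 441 CPM at the median and 2494 CPM at its highest, and in single ES cells 0, 15.6 and 545 CPM. The 2 ranges overlap: 1 MEF had no Hox read, 18 ES cells had none, and the highest ES cell lay above the median MEF. That cell, ES cell 4, had 30 Hox reads in 55056 gene reads. It was 1 of 4 ES cells nearer to the MEF mean profile than to the ES mean profile. Among the other ES cells the highest was ES cell 26 at 246 CPM, below the median MEF.

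Of the 39 members, 27 had at least 20 reads over both types, the minimum used for a fold. Pooled gene reads were 35155326 in MEFs and 8720507 in ES cells. Only Hoxa5, Hoxb3, Hoxb6, Hoxc4, Hoxc6 and Hoxc8 had 20 reads in ES cells alone. The rest met the minimum through their MEF reads, so the counts below are not a test of direction. All 27 had a level at least 2-fold higher in MEFs, where 58.4% of the 12818 genes with as many reads were, and none was at least 2-fold higher in ES cells, where 15.4% of genes were. An 8-fold excess in MEFs was reached by 22 of the 27, against 25% of genes. The median log2 ratio of ES cell over MEF was -3.97 for the 27 and -1.46 for all genes, a distance of -2.51. When the totals were scaled instead by the median ratio over genes, the all-gene median was -0.06. On that scale 24 of the 27 still reached a 2-fold excess in MEFs (34.1% of genes), none in ES cells (31.8%), and 7 were at least 8-fold higher (7.03%). The 3 that were not were Hoxa6, Hoxa9 and Hoxd9, each with under 100 reads. A fold in pooled cells does not separate fewer cells with a transcript from less of it in each cell, and the single-cell values below are given for that reason.

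**Figure D1:**
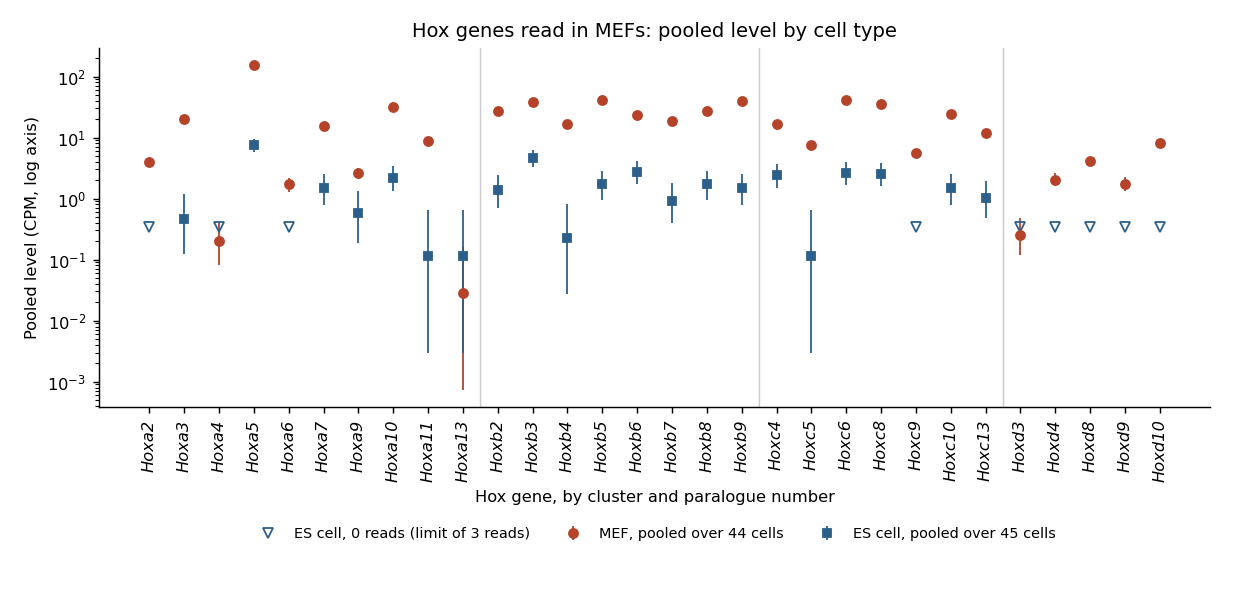
Pooled level of 30 Hox genes with a MEF read, in CPM on a log axis, for 44 MEFs (circles) and 45 ES cells (squares). Bars are exact Poisson 95% intervals and open triangles mark the limit of 3 reads where ES cells had none; Hoxa5 stands highest at 155 CPM, and the ES cell points lie below the MEF points except at genes with fewer than 20 reads.

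A read in at least 25% of MEFs was found for 17 Hox genes (of all gene rows, 38.5% reached this share), and these are described 1 by 1, ordered by cluster. Those read in fewer MEFs are given by cluster with their counts. For each gene the lowest single MEF was at 0. CPM are not divided by transcript length, since 1 tag is read per transcript end. Dividing by length left Hoxa5 first and Hoxc6 in the next place.

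In the Hoxa cluster on chromosome 6, Hoxa5, which patterns the lower neck and upper thorax and is needed for lung development, had more reads than any other Hox gene. It lies at chr6:52201754-52204587 on GRCm38. Hoxa5 had a read in 26 of 44 MEFs (59.1%, 43.2% to 73.7%), with a median of 14.2 CPM and a highest value of 1400.2 CPM in MEF 57. Its pooled level was 155 CPM (151 to 159) in MEFs and 7.45 CPM in ES cells, where 9 cells had a read, a 20.8-fold difference. Plate rows ran from 0 to 294 CPM, so 1 of the 8 rows had no Hoxa5 read at all. Hoxa5 held 32.2% of MEF Hox reads together with its paralogues Hoxb5 and Hoxc5, and it was the Hox gene with most reads in 13 MEFs.

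Hoxa3, which acts in the pharyngeal arches and in thymus and parathyroid formation, had a read in 21 MEFs and reached 123 CPM. Its 703 pooled MEF reads stood against 4 reads of 1 ES cell (0.459 CPM), a 43.6-fold difference in CPM (interval 17 to 160.4). Hoxa7, a gene of the thoracic region, had a read in 12 MEFs, reached 114 CPM and was pooled at 15.4 CPM, 10.3-fold above ES cells. Hoxa7 varied least of the 4 broadly read Hoxa genes over the plate, between 8.88 and 30.9 CPM in single rows. Hoxa10, known for its part in the uterus and the lumbar region, had a read in 17 MEFs. Its pooled 31.1 CPM rested for 50.3% on MEF 57, where it stood at 634 CPM. Without that cell Hoxa10 was at 15.9 CPM, and the difference from ES cells went from 14.3-fold to 7.28-fold.

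The remaining Hoxa genes were read in few cells. Hoxa11, needed for the forearm and the uterus, had 306 reads in 9 MEFs, up to 179 CPM. Against 1 ES cell read its ratio was 75.9 (13.5 to 3008). MEF 71 held 39.5% of the Hoxa11 reads, and without it the pooled level went from 8.70 to 5.37 CPM. Hoxa2, which specifies structures of the pharyngeal arches, was read in 6 MEFs (3.95 CPM pooled) and in no ES cell, at least 11.5-fold higher. Hoxa9, best known in blood progenitors, had 92 reads in 6 MEFs, and Hoxa6 had 60 reads in 3 MEFs, of which 86.7% came from 1 cell. Hoxa4 had 7 reads and Hoxa13, a gene of the hand and foot, had 1, each from a single MEF. Hoxa13 also had 1 read in an ES cell.

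The Hoxb cluster on chromosome 11 was read most evenly: each of Hoxb2 to Hoxb9 had a read in 14 to 25 MEFs, and 41 of 44 MEFs had a read of the cluster. Hoxb2, a gene of the hindbrain and neural crest, had a read in 25 MEFs, with a median of 5.71 CPM and a highest value of 488 CPM. Its plate rows lay between 11.2 and 37.3 CPM, and its pooled 27.1 CPM was 19.7-fold above ES cells. Hoxb3 had a read in 24 MEFs at a median of 3.47 CPM, up to 209 CPM. It was pooled at 38.4 CPM, against 4.59 CPM in ES cells, 8.37-fold. Hoxb4, known for its use in expanding blood stem cells, had a read in 21 MEFs, up to 211 CPM. With 2 ES cell reads its ratio was 72.1 (19.9 to 596).

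The central members Hoxb5 to Hoxb8 were read in fewer MEFs, 14 to 17 each, than Hoxb2 to Hoxb4. Hoxb5, which acts in the enteric neural crest and the shoulder girdle, had a read in 17 MEFs, reached 418 CPM in MEF 60 and was pooled at 40.9 CPM, 23.8-fold above ES cells. Hoxb6 had a read in 17 MEFs, and MEF 58 held 39.7% of its reads. Its pooled 23.6 CPM was 8.57-fold above ES cells, and 14.9 CPM remained without that cell. Of the 17, Hoxb6 alone reversed when the plate was split by rows: in rows E to H it had 21 reads in 3 of 20 MEFs (1.37 CPM) against 13 reads in 1 ES cell (3.06 CPM). All 13 came from ES cell 22, which was nearer to the MEF mean profile than to the ES mean profile.

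Hoxb7 had a read in 14 MEFs, up to 157 CPM, and was pooled at 18.7 CPM, 20.3-fold above ES cells. Hoxb8, a gene of blood progenitors and the trunk, had a read in 15 MEFs, up to 469.6 CPM, and was pooled at 27.2 CPM, 15.8-fold above ES cells. Hoxb9, which acts in the thorax with the other paralogues of its number, had a read in 25 MEFs with a median of 2.38 CPM and a highest value of 681 CPM in MEF 62. It was pooled at 39.9 CPM, 26.8-fold above ES cells. Hoxb1 and Hoxb13, at the 2 ends of the cluster, had no read in any well, which by a limit of 3 counts of the total allows up to 0.0853 CPM in pooled MEFs and up to 6.82% of MEFs with a read. The exact 95% upper limits are 0.105 CPM and 8.04%.

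The Hoxc cluster on chromosome 15 has no paralogues 1 to 3. Hoxc6, a thoracic gene, had a read in 24 MEFs with a median of 2.66 CPM and a highest value of 341 CPM in MEF 58, which held 38.9% of its reads. Its pooled 41.3 CPM was 15.7-fold above ES cells, and 26.5 CPM remained without that cell. Hoxc8, which acts in the lower thorax, had a read in 16 MEFs, reached 181 CPM and was pooled at 36.1 CPM, 14.3-fold above ES cells. Hoxc4 had a read in 15 MEFs, up to 271 CPM, and its 7.04-fold difference (interval 4.56 to 11.5) was the lowest of the 17.

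Hoxc5 had a read in 11 MEFs, up to 58.4 CPM, and all 11 also had a Hoxc6 read. Against 1 ES cell read its ratio was 66.2 (11.8 to 2626). Hoxc10, a gene of the lumbar region and hindlimb, also had a read in 11 MEFs, but MEF 65 alone held 69.9% of its reads at 468 CPM. Without MEF 65 the pooled level of Hoxc10 went from 24.5 to 7.68 CPM and its difference from ES cells from 16.5-fold to 5.15-fold. Hoxc10 was also the main Hox gene in the negative controls, with 6 reads in 1 of the 4 wells, beside 1 read of Hoxb4 in another.

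Hoxc13, known for its part in hair and nails, had 412 reads in 8 MEFs, up to 347 CPM, and 9 reads in 1 ES cell. Hoxc9 had 198 reads in 8 MEFs and none in ES cells, at least 16.4-fold higher. Between them on the chromosome, Hoxc11 and Hoxc12 had no read in any well. A MEF read of the most posterior gene was thus found where its neighbours had none.

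The Hoxd cluster on chromosome 2 held 576 reads, 2.59% of MEF Hox reads, in 14 MEFs, and it had no read in any ES cell. Hoxd10, which acts in the limb and lower spinal cord, had 288 reads in 6 MEFs and stood at least 23.8-fold above ES cells. MEF 56 held 63.2% of those reads at 167 CPM, and without it the lower bound was 9.05-fold. Hoxd8 had 146 reads in 4 MEFs, at least 12.1-fold higher, and at least 6.81-fold without MEF 60, which held 45.2% of its reads. Hoxd4 had 72 reads, of which 97.2% came from MEF 65, Hoxd9 had 61 reads in 3 MEFs, and Hoxd3 had 9 in 1 MEF. Hoxd1, Hoxd11, Hoxd12 and Hoxd13 had none, the last 3 being genes of the distal limb.

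**Figure D2:**
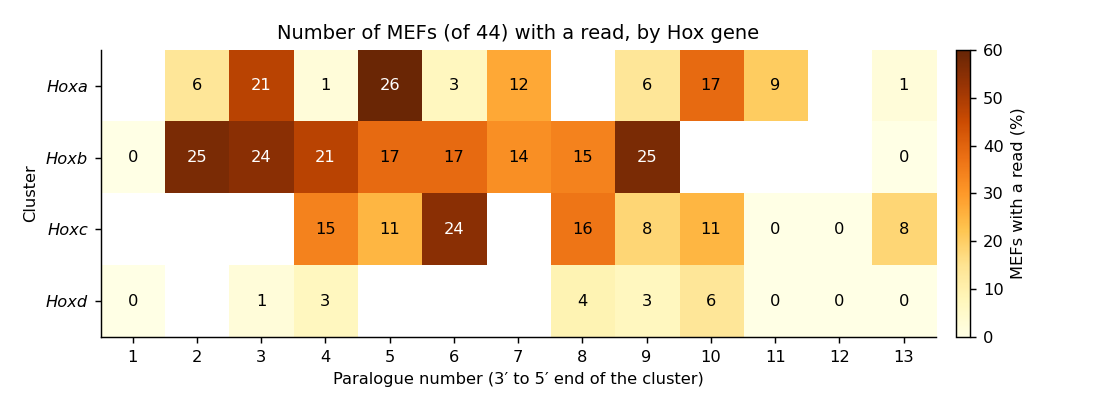
Number of the 44 MEFs with a read of 38 Hox genes, by cluster (rows) and paralogue number (columns), coloured by the share of MEFs; white cells are positions with no gene plotted. Hoxa5 was read in 26 MEFs, Hoxb2 and Hoxb9 in 25, and the Hoxd genes in at most 6.

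Some rows could share reads. On GENCODE vM21, Hoxc5 and Hoxc10 share 166 exon bases on the same strand and Hoxd3 and Hoxd4 share 388, and how the authors' counting divided such reads is not given in the sources used here. In 30 of the 31 rows with a read, all reads were uniquely mapped over the plate, and no pair of Hox rows held identical counts. A unique mapping does not separate overlapping genes.

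By cluster, Hoxa held 37.9% of MEF Hox reads, Hoxb 36.8%, Hoxc 22.8% and Hoxd 2.59%. The order of Hoxa and Hoxb depended on the weighting: with each MEF weighted equally, Hoxb held 42.5% and Hoxa 33.5%. In single plate rows the Hoxa share ran from 11.6% to 54.6% and the Hoxb share from 25.7% to 52.4%, so the pair do not differ beyond this spread. The Hoxd share lay between 0% and 12.7% in single rows, below the lowest Hoxc share of 14.1%.

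By position, central genes held 64.5% of MEF Hox reads (51.3% to 77.4% over plate rows), posterior genes 21.2% (7.52% to 37.3%) and anterior genes 14.3% (9.36% to 28%). The central share lay above the other 2 in every plate row, while the anterior and posterior ranges overlap. The classes differ in size, with 8 anterior, 15 central and 16 posterior genes, and Hoxa5 alone gave 5459 of the 14332 central reads. By paralogue number, group 5 held the most pooled reads (32.2%), but its share ran from 2.20% to 42.6% over plate rows, and group 8, with 10.7% of pooled reads, reached 38.4% in a row. Groups 11, 12 and 13 held 1.38% (0% to 4.65%), 0% and 1.86% (0% to 5.72%). Group 9, with all 4 of its genes read, was found in 31 MEFs, close to the 32 of group 3, although it held 7.89% of reads against 9.28%.

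A single MEF had reads of a median of 8 Hox genes, from 0 in MEF 85 to 19 in MEF 65. ES cells had a median of 1, from 0 to 8. The number followed the depth of the cell: over the 44 MEFs, Spearman's rho with gene reads was 0.73 and Pearson's r with log10 gene reads was 0.69, given as descriptions of 1 plate. The deeper 22 MEFs had a median of 11.5 Hox genes and the shallower 22 a median of 5.5. The summed Hox CPM did not follow depth in this way (rho 0.04).

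When every cell was thinned to 20000 gene reads, which left out 3 ES cells and no MEF, MEFs had a median of 4 Hox genes (0 to 11) and the 42 ES cells a median of 0 (0 to 4). At 60000 reads the MEF median was 6 (0 to 16). The types thus differed in number at equal read totals. Thinning did not remove the relation to original depth: at 60000 reads Spearman's rho with gene reads was still 0.57 over the MEFs, with a median of 7.5 Hox genes in the deeper 22 and 4 in the shallower 22.

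**Figure D3:**
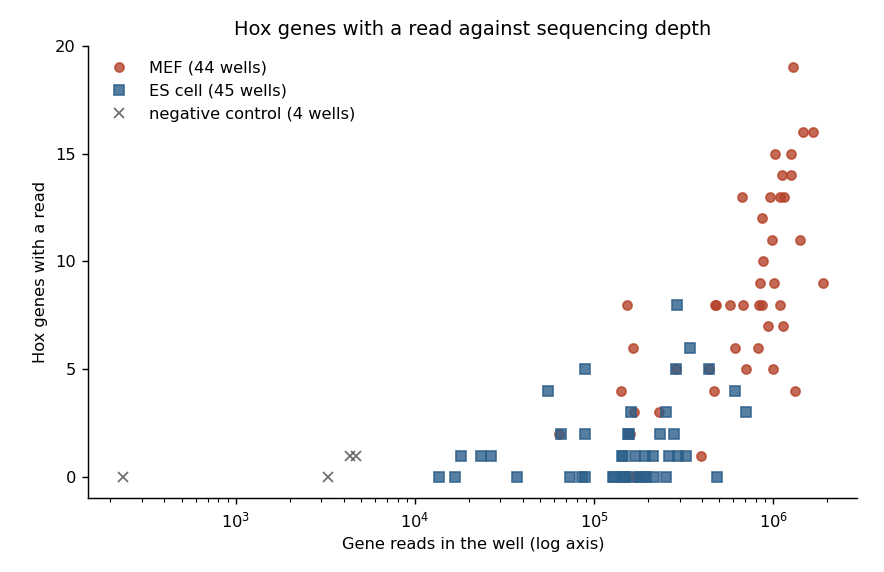
Hox genes with a read in each well against its gene reads (log axis), for 44 MEFs, 45 ES cells and 4 negative controls. MEFs run from 0 to 19 genes and rise with depth, ES cells run from 0 to 8, and negative controls have 0 or 1.

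Over the 17 genes in at least 25% of MEFs, the number of MEFs with a read was 11 to 26, with a median of 17. The 7653 gene rows with as many MEF reads (267 to 5459) had a median of 23 (quartiles 15 and 31). These medians are not a like comparison, because the 17 were chosen by their number of MEFs. Hoxa11 (306 reads in 9 MEFs), Hoxc13 (412 in 8) and Hoxd10 (288 in 6) lie in the same read range but were left out. For the 17 genes, the 1 MEF with most reads held 15.8% to 69.9% of a gene's reads (median 22.9%). Of the 27 Hox genes with at least 20 MEF reads, 7 had at least 50% of them in 1 MEF, a share not far above the 17.9% of all genes with as many, so it is not read as particular to them: Hoxa6, Hoxa9, Hoxa10, Hoxc10, Hoxd4, Hoxd9 and Hoxd10.

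No combination of Hox genes occurred in more than 1 MEF: the 44 MEFs had 44 different sets, counting the empty set of MEF 85. With 31 Hox genes read in MEFs, each in a part of the cells, exact sets would seldom match, so this count is a description only. The part of missed reads in it was not tested. A read of anterior, central and posterior genes together was found in 31 MEFs. Central and posterior genes without an anterior one were found in 5, anterior and central in 4, central alone in 2 and anterior alone in 1. The cells with all 3 classes were the deeper ones, with a median of 985554 gene reads, against 436521 for central with posterior and 230339.5 for central alone. Reads came from all 4 clusters in 10 MEFs, from 3 in 23, from 2 in 6 and from 1 in 4.

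Single cells are given as examples of these sets, as read at the depth of each cell. MEF 58 had reads of 16 genes, all in Hoxa3 to Hoxa7, Hoxb2 to Hoxb9 and Hoxc4 to Hoxc8, and was the 1 MEF with reads of all 8 genes from Hoxb2 to Hoxb9. Its highest were Hoxa5 (930 reads), Hoxc6 (565) and Hoxb9 (338), and it had none above paralogue 9. MEF 57 had the highest summed level, 2494 CPM, led by Hoxa5 (1217 reads) and Hoxa10 (551), followed by Hoxb9 and then Hoxc13 (130).

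MEF 65, with 19 genes, was led by Hoxc10 (603 reads) and Hoxc8 (202), and it had 34 reads of the anterior gene Hoxa2. MEF 83 held a short set led by Hoxc13 (100 reads), Hoxc10 (33) and Hoxc9 (24), with 7 reads each of Hoxa4 and Hoxd10 and no Hoxb read. At the other end, MEF 80 had Hoxb2 and Hoxb3 alone, and MEF 86 had 9 reads of Hoxc6 alone in spite of 396741 gene reads. The main Hox gene differed from cell to cell: after Hoxa5 in 13 MEFs came Hoxb3 and Hoxb5 in 4 each and Hoxb2 and Hoxb8 in 3 each. It held a median of 41.8% of a cell's Hox reads (19.3% to 100%).

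**Figure D4:**
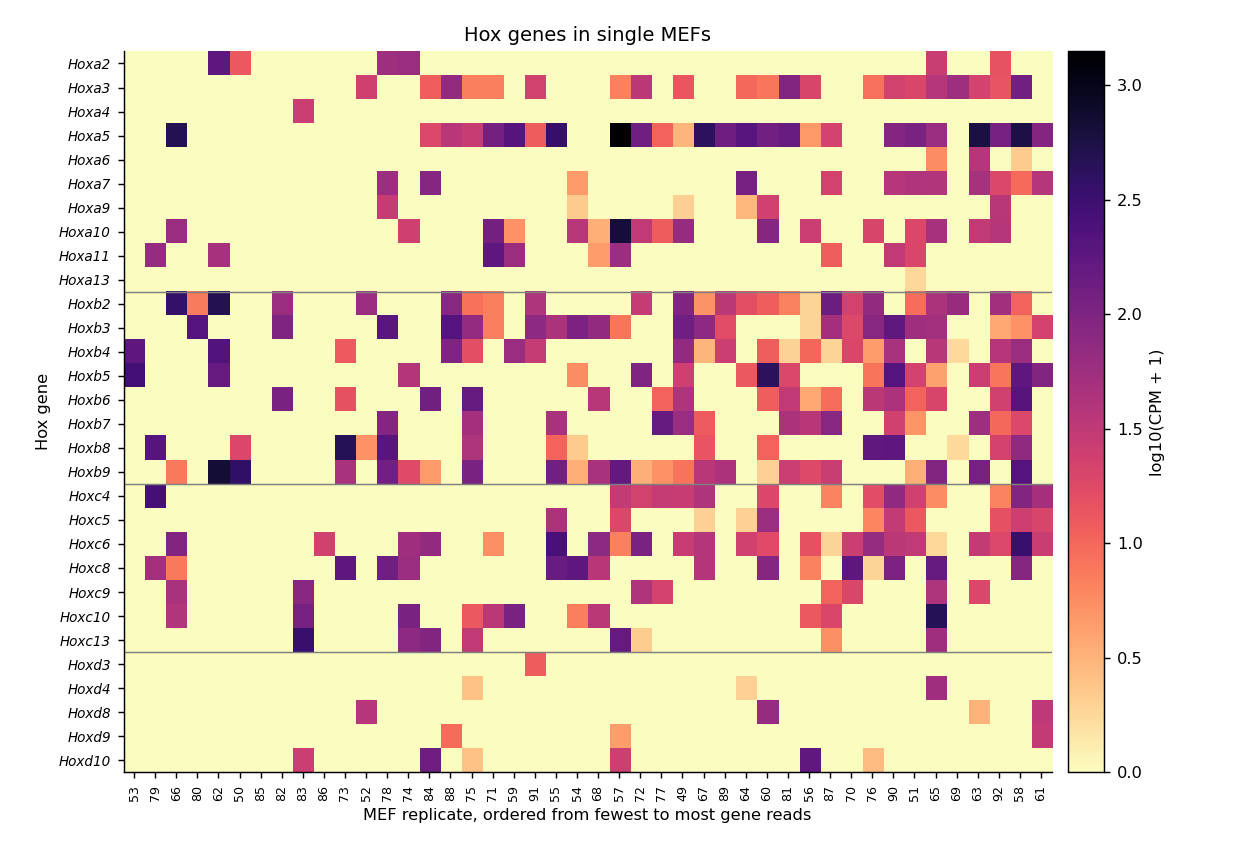
Level of 30 Hox genes (rows, by cluster) in each of the 44 MEFs (columns, from fewest to most gene reads), as log10(CPM + 1), with the palest colour at 0. Filled cells are scattered over rows and become more frequent toward the right, and Hoxa5 in MEF 57 is the darkest at 1400.2 CPM.

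The highest paralogue number in a MEF was 9 in 12 cells, 10 in 9, 11 in 6 and 13 in 9. A gene of paralogues 10 to 13 was thus read in 24 MEFs. Of these, 20 also had an anterior gene. They had a median of 10.5 Hox genes and 871468 gene reads, against 5.5 genes and 716492 reads in the 20 MEFs without, so they were somewhat deeper. The genes that define the first group are counted in its number of Hox genes, which raises that number by construction. Among the posterior genes, Hoxc13 and Hoxc10 were read together in 5 MEFs of the 8 and 11 that had them. Hoxd10 and Hoxc13 were read together in 4 MEFs of 6 and 8, and Hoxa11 and Hoxd10 in 1 MEF of 9 and 6. Of the 8 MEFs with Hoxc13, 7 also had Hoxb9, which 18 of the other 36 had.

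Transcription factors that mark limb or trunk fields were set beside these genes. Tbx5, a forelimb gene, had a read in 8 MEFs, of which none had Hoxc10, 4 had Hoxa10 and 2 had Hoxa11. Tbx4, a hindlimb gene, had a read in 2 MEFs, of which both had Hoxc10 and Hoxa10 and 1 had Hoxa11. Pitx1, another hindlimb gene, had no read. Lhx9 had a read in 10 of the 17 MEFs with Hoxa10 and in 5 of the 27 without, where the first were deeper (median 929472 against 612009 gene reads). En1 had a read in 4 of the 8 MEFs with Hoxc9 and in 1 of the 36 without, again with more reads in the first (1027680 against 826740). These pairs were picked out after their counts were seen, and whether depth accounts for them was not tested.

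Over the 136 pairs of the 17 broadly read genes, the MEFs with both genes were a median of 35.1% of the MEFs with either, from 0% to 62.1%. The 10 pairs of chromosome neighbours had a median of 44.0% (29% to 53.1%), the 9 pairs of equal paralogue number 40%, the 34 other pairs within a cluster 35% and the 83 remaining pairs 33.3%. The ranges of the 4 kinds overlap. Thinned to 60000 gene reads per MEF, the medians were 26.5%, 23.1%, 20.3% and 20.8%, with all pairs at 20.9%, so the share depends on depth and the neighbours kept the highest median.

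As a share of the MEFs with either gene, Hoxa3 and Hoxa5 were highest, with both in 18 of 29 (62.1%). Hoxa5 and Hoxc6 were close at 19 of 31 (61.3%), the highest number of MEFs with both. The order depended on depth: thinned to 60000 gene reads, Hoxa3 with Hoxb6 was highest at 45%, with Hoxa3 and Hoxa5 at 39.3%. Among neighbours, Hoxb2 with Hoxb3 (17 of 32) and Hoxc4 with Hoxc5 (9 of 17) were highest, and Hoxb8 with Hoxb9 (9 of 31) was lowest. Hoxc5 and Hoxc10 were never read in the same MEF, although each had a read in 11. Those 2 rows share exon bases, as given above. Hoxc10 had the lowest shares with several genes, such as 2 of 24 MEFs with Hoxb8 and 2 of 24 with Hoxc4, and Hoxa10 had 4 of 28 with Hoxb8. In 133 of the 136 pairs the MEFs with neither gene were shallower than those with both, for Hoxa5 and Hoxc6 at a median of 229894 against 1026790 gene reads. In 2 pairs, Hoxb8 and Hoxc8 each with Hoxc10, they were deeper (871468 against 755131 gene reads and 869164 against 851801), and Hoxc5 with Hoxc10 had no MEF with both.

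**Figure D5:**
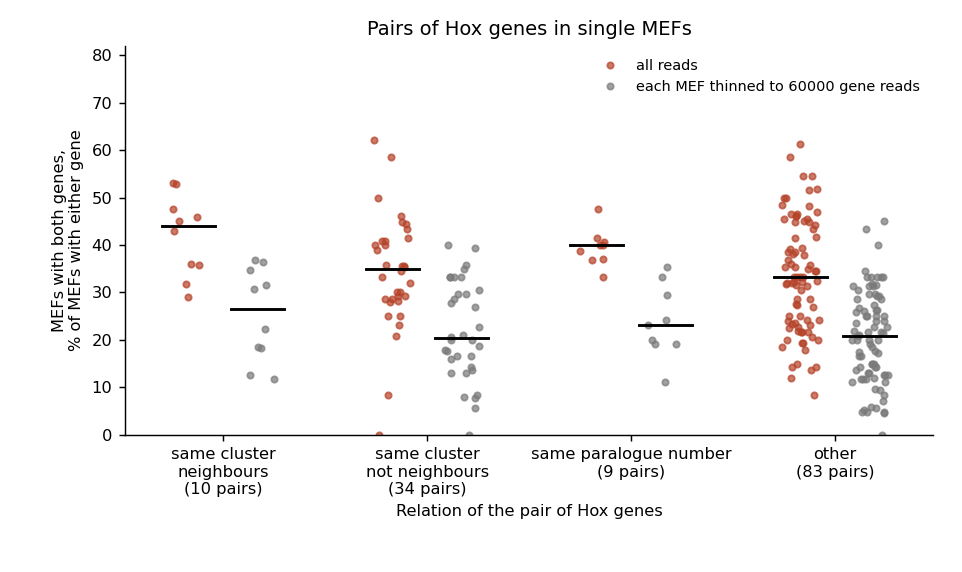
MEFs with a read of both genes as a percentage of MEFs with a read of either, for the 136 pairs of 17 Hox genes by relation, with all reads and with each MEF thinned to 60000 gene reads; black lines are medians. Neighbours in a cluster have the highest median (44.0%, and 26.5% when thinned), and the points of the 4 relations overlap.

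The few Hox reads in ES cells were spread thinly. A Hox read was found in 27 of the 45 ES cells, 21 of the 39 genes had at least 1 read there, and 5 ES cells had reads of at least 5 Hox genes. The ES cell with most, ES cell 22, had 49 reads of 8 genes from Hoxa5 to Hoxc10. ES cells 4, 7, 10 and 22 were nearer to the MEF mean profile than to the ES mean profile. They held 114 of the 326 reads (35%), and without them the ES cell sum was 26.5 CPM. Single ES cells also set the size of the folds. For 15 of the 17 broadly read genes ES cell reads remained when the ES cell with most of them was left out, a setting chosen after seeing the data. Such a removal lowers the ES cell level by construction, so the larger fold in all 15 is not a result. Its size rose by over 1.5 times in 13, and the lowest fold was 13.6-fold, for Hoxc4. Leaving out the MEF with most reads instead lowers the fold, for Hoxc4 to 5.49-fold. For Hoxa3 and Hoxc5 all ES cell reads came from 1 cell.

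The ES cell sum was 5.91% of the MEF sum, and fibroblast markers stood at 7.0% in the same comparison, with 3.83% for Thy1, 4.47% for Col1a1 and 10.2% for Vim. ES cells with a Hox read had a median of 478 CPM of fibroblast markers and 192603 gene reads, and those without had 284 CPM and 147480 gene reads. As shares of the MEF value, Hox reads and fibroblast markers in ES cells were thus alike, while their levels there were 37.4 and 663 CPM. The part of fibroblast transcripts in the Hox reads was not tested.

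The TALE class (Pbx, Meis and Prep proteins) supplies the partners that bind DNA with Hox proteins, and 7 of its 9 measured genes stood at least 2-fold above ES cells in MEFs and none the other way, where 58.4% and 15.4% of all measured genes did. Pbx3 (1.34 CPM in MEFs, 1.49 CPM in ES cells) and Pknox2 (2.53 and 3.55 CPM) were the other 2. By the median-ratio scale the counts were 5 and 2, beside 34.1% and 31.8% of all genes. Meis2 was pooled at 85.8 CPM in MEFs with a read in 33 cells, 13.1-fold above ES cells. Meis1, by contrast, had a read in 11 MEFs.

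Of 11 measured genes that act upstream of Hox genes, mostly in retinoic acid handling, 9 stood at least 2-fold above ES cells in MEFs and none the other way, beside 58.4% and 15.4% of all measured genes. On the median-ratio scale the counts were 8 and 1, beside 34.1% and 31.8%. Cyp26b1, which degrades retinoic acid, was at 180.2 CPM in MEFs, 27.6-fold above ES cells, with a read in 22 cells. MEF 81 held 45.7% of its reads, and without that cell Cyp26b1 was at 101 CPM, 15.4-fold above ES cells. Rarg, a retinoic acid receptor, had a read in 37 MEFs and was 4.14-fold higher. It was 7.24-fold higher without ES cell 39, which held 44.6% of its ES cell reads. Without MEF 69, which held 18.2% of its MEF reads, it was 3.51-fold higher. Each removal moves the fold by construction. Cdx1, Cdx2 and Cdx4, which induce trunk Hox genes in the embryo, had no read in either type.

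Polycomb and trithorax genes, which keep Hox genes silent or active, did not share 1 direction. Of 25 measured, 12 were higher in MEFs by at least 2-fold, 8 in ES cells and 5 in neither. Against the 58.4% and 15.4% of all measured genes, this is a smaller share in MEFs and a larger one in ES cells. On the median-ratio scale the counts were 5 higher in MEFs (34.1% of genes) and 13 in ES cells (31.8%). Eed and Suz12, core subunits of the Polycomb complex that methylates histone H3, were 3.34-fold and 2.70-fold higher in ES cells. Other subunits of that complex did not follow. Ezh2 was at 15.3 CPM in ES cells and 16.9 CPM in MEFs, and Ezh1 was 3.07-fold higher in MEFs. Eed stood at 42.5 CPM in MEFs, and at 25.7 CPM without MEF 55, which held 40.9% of its reads there. The direction of Eed and Suz12 reversed with spike-in scaling. Rbbp4 was 2.16-fold higher in MEFs, a direction that reversed on the median-ratio scale.

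Of 17 measured genes inside or next to the clusters, 10 were higher in MEFs by at least 2-fold, 1 in ES cells and 6 in neither. The share in MEFs is close to that of all measured genes (58.4%, with 15.4% in ES cells). On the median-ratio scale 3 and 4 were, beside 34.1% and 31.8% of genes. Atp5g2, beside the Hoxc cluster, was at 438 CPM in MEFs and 457 CPM in ES cells, with a read in all 44 and all 45 cells. Evx1 and Evx2, at the posterior ends of Hoxa and Hoxd, had no read. Of the miRNA rows in the clusters, Mir196a-1 had 60 reads in 1 MEF, and Mir10a, Mir10b, Mir196a-2 and Mir196b had none.

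Of 32 measured positional factors of limb, trunk and head mesenchyme, 28 were higher in MEFs by at least 2-fold and 2 in ES cells, beside 58.4% and 15.4% of all genes. On the median-ratio scale 19 and 3 were, beside 34.1% and 31.8%. Prrx1, a limb mesenchyme gene, had a read in 33 MEFs at 266 CPM pooled, 16.5-fold above ES cells. It was 25.6-fold above without ES cell 10 and 15.3-fold without MEF 90, the cells of each type with most of its reads. Tbx15, which acts in skin and skeleton, had a read in 30 MEFs at 109 CPM, 11.9-fold above ES cells. Prrx2 had a read in 40 MEFs. These 3 factors were thus read in more MEFs than any Hox gene. Of 21 homeobox genes outside the clusters, 16 were higher in MEFs and 4, Pou5f1 among them, in ES cells, the latter near the 15.4% of all genes (58.4% in MEFs). On the median-ratio scale 12 and 4 were, beside 34.1% and 31.8%.

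Of the markers of other cell types, those of blood, endothelium, muscle and epithelium were low in pooled MEFs. Those of macrophages and blood summed to 2.79 CPM, of endothelium to 7.85 CPM, of muscle to 0.427 CPM and of epithelium to 4.95 CPM, with Cd68, Pecam1, Cdh5, Myod1 and Krt8 at 0 reads. Other members were read in a few MEFs. The endothelial marker Kdr had 200 reads in 4 MEFs, up to 103 CPM, and Lyz2 had 74 reads in 2 MEFs, up to 75.3 CPM. Neural and neural crest markers summed to 205 CPM, from 0 to 2946 CPM in single MEFs, and cartilage and fat markers to 131 CPM, from 0 to 3090.3 CPM, with Sox1, Pax6 and Acan at 0. The part of such differences between MEFs in their Hox sets was not tested.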

How the data were processed

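Read counts per gene in each of 96 wells were deposited by the authors without normalization. Per the file headers, these counts are maximum exon hits that include reads with alternative mappings, and separate deposited columns give uniquely mapped reads over the plate and transcript length, which are of other units. Bowtie is named in the submitters' processing notes, without a version, and the genome build and gene annotation are not given in the sources used here. Every column of per-well values was matched to its sample by well position.

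For each type, counts were pooled over its cells and scaled by gene reads (1217 repeat rows and 8 spike-in rows were left out) to give CPM with Python 3.11.15, numpy 2.4.6, pandas 2.3.3 and scipy 1.17.1. A fold needs at least 20 reads over both types. Where a type had 0 reads, its sum was set to 3 reads, which makes the fold a lower bound, and with 1 or 2 reads the ratio is given with its exact interval. A gene has a read in a cell at 1 count or more. Cells were thinned without replacement. Neighbours are adjacent rows of a cluster. Hox genes in at least 25% of MEFs got full values, and from each other gene list the 4 members with the highest level and at least 100 reads could be named; genes named outside this rule were chosen after their values were seen. The members and lists were chosen with earlier results of these data known. Summing and fold steps were tested on simulated data. Gene positions are from GENCODE vM21 (GRCm38). Values of 1 Hox row and of 1 cofactor gene are not reported here, and both remain in the counts and sums.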

Additional observations from a re-analysis of the deposited data

How the results depend on the processing

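Each type is 1 sample, so depth, scaling and single wells set the limits. On the median-ratio scale the median log2 ratio of the measured Hox genes was -2.57, and with spike-in scaling it was -8.53, with the all-gene medians at -0.06 and -6.02. With spike-in scaling the summed Hox level was 3073 CPM in MEFs and 7.69 CPM in ES cells, and without ribosomal protein genes in the totals the ES cell sum was 67.5 CPM. Thinned to 20000 gene reads, 10 Hox genes had at least 20 reads and 10 of them had a 2-fold excess in MEFs, 6 genes had a read in at least 25% of MEFs and the median per MEF was 4. Thinned to 60000, 11 genes had a read in at least 25% of MEFs and co-detection had a median of 20.9%, an alternative chosen after seeing the data. In plate rows E to H 1 Hox gene was at least 2-fold higher in ES cells, Hoxb6 with a log2 ratio of 1.16, on reads of ES cell 22 alone. Reversed among other genes were Eed (-2.82) and Suz12 (-3.13) with spike-in scaling, Rbbp4 (0.28) and Atp5g1 (0.29) on the median-ratio scale, and Krt18 (0.067) thinned to 20000. Of 170 log2 ratios for the 17 broadly read Hox genes over 10 settings, 168 were at or below -1. This count is not a test of direction, because the 17 were chosen by their reads in MEFs and a rescaling shifts every gene alike. Of all measured genes, spike-in scaling placed 94.7% past a 2-fold MEF excess, and the median-ratio scale 34.1%. Without the well with most reads of each gene, 24 Hox genes kept a 2-fold excess in MEFs. No paired analysis was possible because the groups share no replicate numbers and each type is 1 sample.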
